A study of Mus musculus with 45 samples.

Results

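Amino acid transporters of the solute carrier families Slc1, Slc3, Slc6, Slc7, Slc36, Slc38 and Slc43 were examined for binding sites of REV-ERBα in mouse liver. The genes were chosen with earlier results of these data known, and membership was set by gene symbol. Every protein-coding gene whose symbol is one of these 7 family names followed by "a" and a number was taken. That gave 61 of 21631 protein-coding genes on the autosomes and the X chromosome. Slc6a20a and Slc6a20b end in a letter and fall outside that rule. The symbols also take in carriers of other cargo, such as the monoamine transporters Slc6a2, Slc6a3 and Slc6a4, the creatine transporter Slc6a8 and the nucleobase carrier Slc43a3. Chromatin immunoprecipitation with sequencing was done on whole liver of mice of genotype REV-ERBa3HA/3HA, in which REV-ERBα carries a 3HA epitope tag, with anti-HA magnetic beads and no AAV injection. There were 4 samples at zeitgeber time 10 (ZT10, hour 10 of the light-dark cycle) and 4 at ZT22, and each time has 1 peak list, made by the authors from its pooled samples. Both groups carry the tag. The input library and the anti-HA library of untagged B6-WT liver were not analysed here. The labels give no age, and whole liver holds several cell types whose sites cannot be told apart.

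REV-ERBα is a nuclear receptor that represses transcription by bringing the NCOR-HDAC3 corepressor to DNA, and its protein in liver is abundant late in the day and scarce late in the night. It binds the hexamer AGGTCA, often with an A- and T-rich flank. Amino acid transporters set how much of each amino acid a cell takes up or releases. In liver they feed the urea cycle, glucose production, glutamine exchange and bile acid conjugation with taurine, while in brain related proteins clear glutamate, GABA, glycine and monoamines from synapses.

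A gene was given a site where a peak's summit lay inside its span or within 10 kb of either end. Each site has a fold enrichment, which is the authors' value for the height of the summit over its local background. At ZT10, 29 of the 61 transporters (47.5%) had at least 1 site, against 54.5% of all protein-coding genes. The mean number of sites per gene was 1.39, against 1.32 over all genes. With the span alone the order of the shares turned, at 37.7% of the transporters and 36.2% of all genes. Among the 276 other solute carriers, 186 (67.4%) had one. The 61 genes held 83 sites at ZT10, with folds of 4.02 to 18.9 and a median of 6.53, and the whole ZT10 list of 27929 peaks had a median of 6.81. At ZT22, 0 of the 61 had a site, against 0.0693% of all genes.

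With 1 pooled list per time, no value has a spread between replicates, and no p-value was computed. Precision was taken from the number of fragments at each summit, recovered from the list, which ran from 84 to 408 over the 83 sites. Intervals below are exact Poisson intervals at 95% on that number, carried over to the fold, and cover counting error only. As a check of the labelled tissue, 11 of 11 hepatocyte markers had a ZT10 site, and of 10 neuronal markers 2 had one, against 54.5% of all genes. The median strongest fold was 15.8 at the hepatocyte markers and 7.87 at those 2 neuronal markers, against 7.82 over all genes with a site. The median span was 15.7 kb for the hepatocyte markers. It was 468 kb for the neuronal markers with a site and 46.4 kb for those without, and the part of gene length was not tested.

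Sites were unevenly spread over transporters grouped by the tissue in which each is best known. The grouping was written from general knowledge of each transporter, with earlier results of these data known, so its shares are description only. All 8 transporters placed in the liver group had a ZT10 site, as did both placed in the liver and brain group, Slc1a2 and Slc6a9. The liver group takes in Slc38a2, whose carrier is not confined to liver. Of the 18 known chiefly from brain or retina, 2 (11.1%) had one. The broadly expressed group had a site at 9 of 15 (60%) and the kidney and gut group at 5 of 11 (45.5%). The group known from other tissues had one at 3 of 7 (42.9%). Over all protein-coding genes the share was 54.5%. The median span was 24 kb in the liver group, 83.3 kb in the liver and brain group, 41.9 kb in the brain and retina group, 26.6 kb in the kidney and gut group, 32 kb in the broad group and 27.5 kb in the group of other tissues, and the part of gene length in these shares was not tested. A summit of fold 10 or more was found at 7 of the 8 liver transporters and at 0 of the 18 of brain and retina, against 19.1% of all genes. Among the 7 is Slc38a2, and Slc38a3 passed fold 10 through a summit that lies inside another gene, Gnat1.

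**Figure D1:**
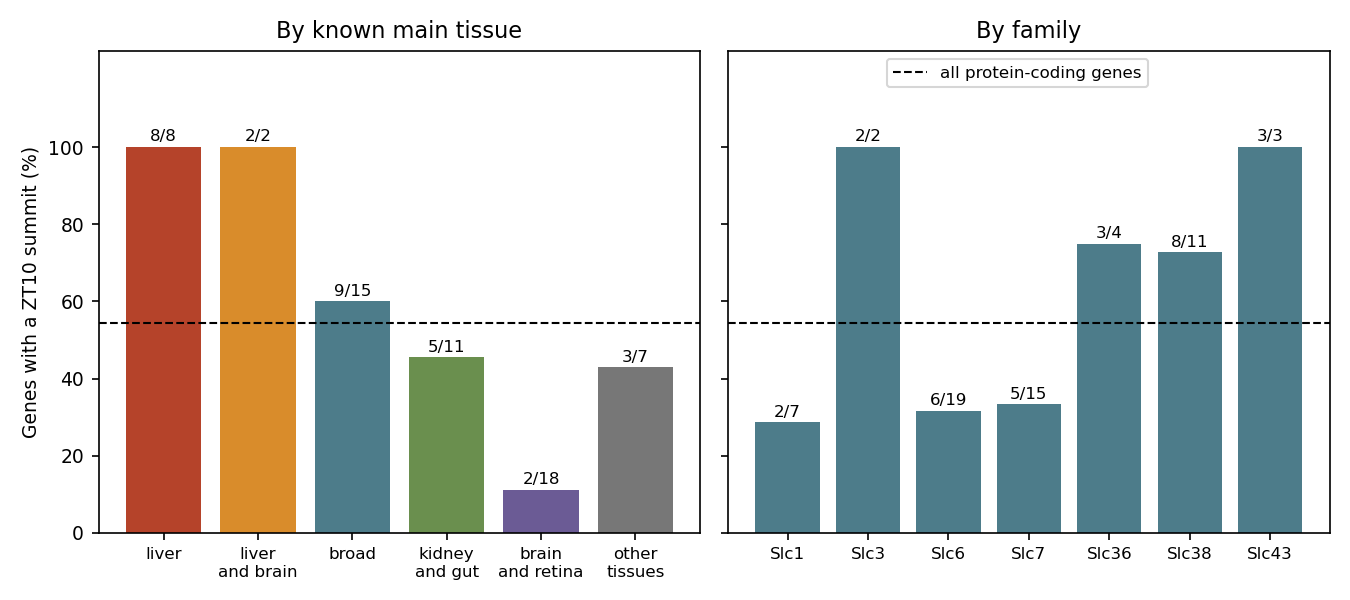
Share of transporters with a ZT10 REV-ERBα summit inside the span or within 10 kb, in percent of genes, by the tissue each is best known from (left) and by family (right). The numbers over the bars are genes with a site over genes in the group, and the dashed line is the 54.5% of all protein-coding genes; the liver bar stands at 8 of 8 and the brain and retina bar at 2 of 18.

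The Slc38 genes placed in the liver group had many or wide peaks. Slc38a4 encodes SNAT4, a sodium-coupled carrier of neutral and cationic amino acids that is abundant in hepatocytes. Its span on chromosome 15 (96994816 to 97055956, mm10) held 9 ZT10 sites, and 1.31% of all genes had as many. Scaled to the gene with 10 kb on either side, that was 11.1 sites per 100 kb, and 3.08% of all genes were as dense. The strongest, with 397 fragments, had a fold of 18.4 (16.7 to 20.3) under a peak of 12695 bp from 97025198 to 97037892, and 0.576% of the ZT10 peaks were as wide. The other 8 sites had folds of 16.7, 14.0, 12.7, 9.29, 7.64, 5.39, 4.19 and 4.10. All 9 lay inside the gene, and ZT10 peaks covered 50.3% of the gene with 10 kb on either side, which 0.837% of all genes matched.

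Slc38a3 encodes SNAT3, which exchanges glutamine, asparagine and histidine with the blood. It had 5 sites, and 5.56% of all genes had as many, while 39.1% of its window lay under peaks. That was 13.2 sites per 100 kb, and 1.44% of all genes were as dense. The strongest, at fold 16.9 (15.2 to 18.7), lay on chromosome 9 (107673574 to 107678407), 6073 bp outside Slc38a3 and inside Gnat1, a gene of the rod photoreceptor, so Gnat1 is the nearer gene. The strongest inside Slc38a3 had a fold of 9.84 and lay 1301 bp from a gene end, and the other 3 had folds of 4.37 to 5.11. Slc38a2 encodes SNAT2, the system A carrier that cells raise when amino acids run short. It had a single site with a fold of 12.4 (11.0 to 14.0), whose summit lay 138 bp past the annotated start under a peak of 4906 bp (chromosome 15, 96695944 to 96700849).

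The other liver transporters carry cationic amino acids, GABA, betaine, taurine, branched-chain amino acids and nucleobases. Slc7a2, which encodes the arginine and lysine carrier CAT2, had 7 sites, and 2.51% of all genes had as many. Scaled in the same way to its window, that was 8.78 sites per 100 kb, and 6.53% of all genes were as dense. Its strongest had a fold of 15.3 (13.7 to 17.0) and lay 548 bp outside the gene on chromosome 8, from 40861111 to 40865881. Its next sites, both of fold 12.1, lay 3985 bp outside the gene and deep inside it under a peak of 9841 bp. Its other 4 sites had folds of 9.65, 6.26, 4.42 and 4.10.

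Slc6a13 encodes GAT2, which takes up GABA and taurine in hepatocytes, and Slc6a12 beside it on chromosome 6 encodes the betaine and GABA carrier BGT1. Slc6a13 had 6 sites and Slc6a12 had 2, and both sites of Slc6a12 were counted for Slc6a13 too. The strongest of Slc6a13 had a fold of 17.0 (15.3 to 18.8) under the widest peak at any of the 61 genes, 13270 bp from 121298858 to 121312127, which spans all 3 annotated starts of Slc6a13. The shared sites had folds of 12.3, inside Slc6a12, and 8.55, inside Slc6a13.

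Slc43a1, which encodes the branched-chain amino acid carrier LAT3, had a single site of fold 12.3 (10.9 to 13.8), 12283 bp inside the gene under a peak of 2239 bp (chromosome 2, 84849851 to 84852089). Slc43a3, also on chromosome 2 and a purine nucleobase carrier, had a weak single site of fold 4.65 (3.81 to 5.63), 3144 bp outside the gene. It was the one liver transporter below fold 10.

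**Figure D2:**
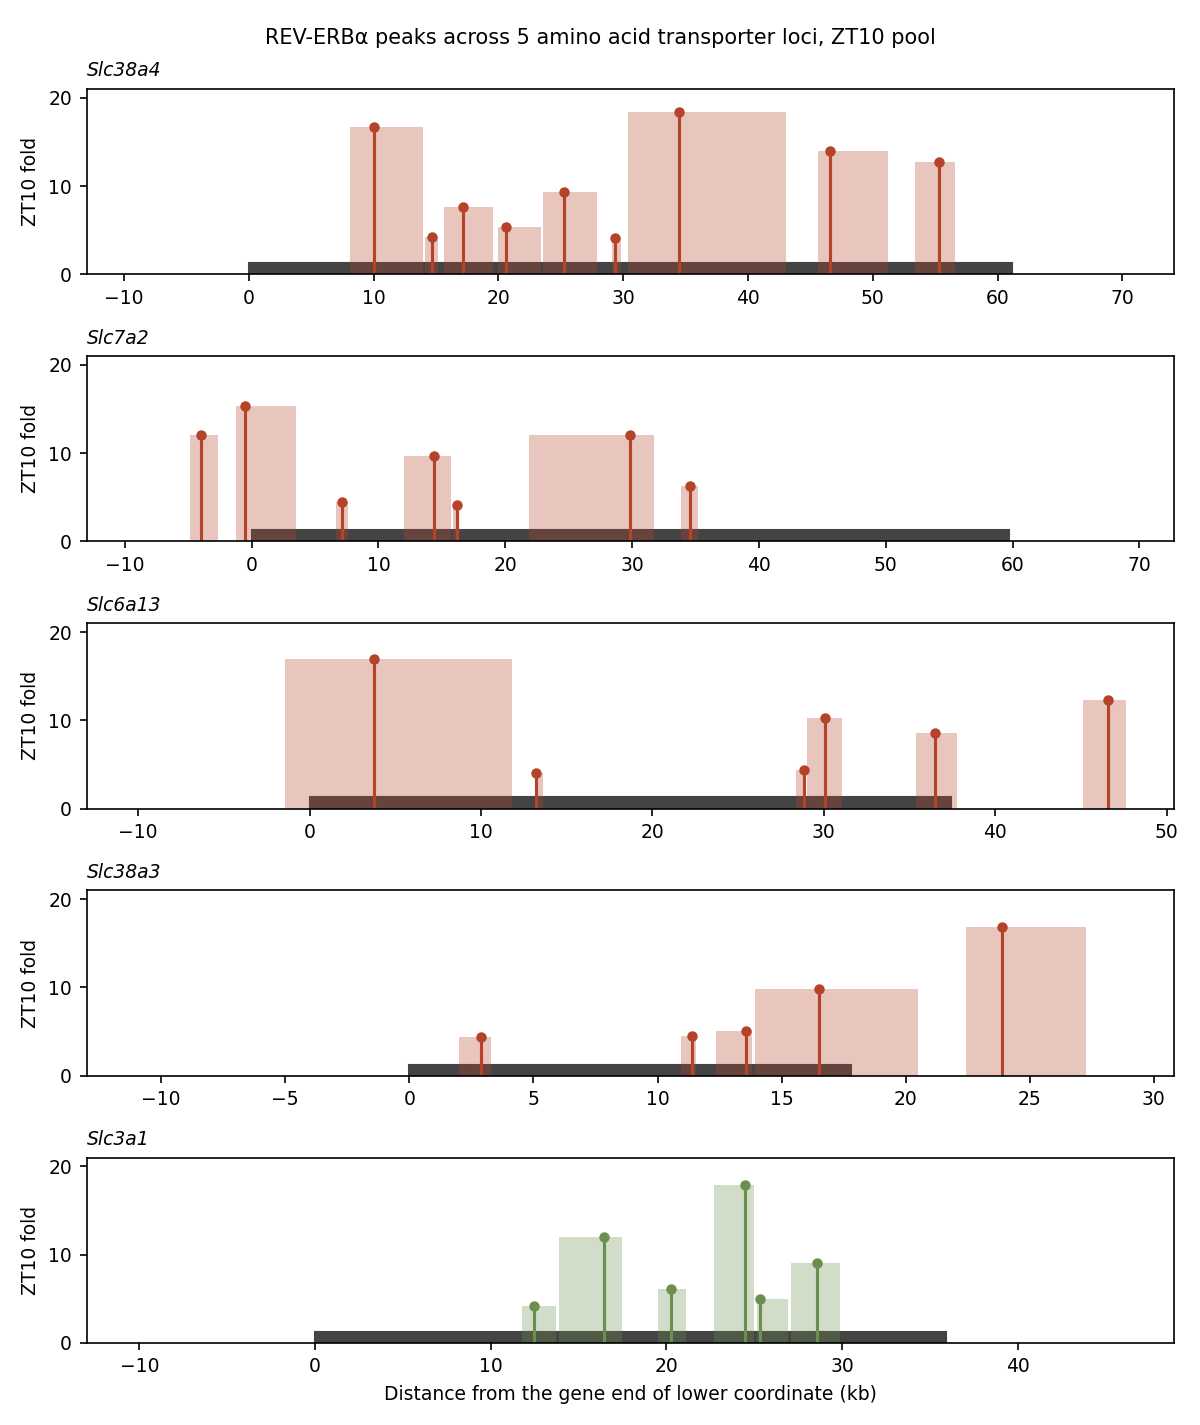
ZT10 fold (vertical axis) of each REV-ERBα site against its distance in kb from the gene end of lower coordinate, at 5 loci chosen after their values were seen. Shaded boxes are peak intervals, stems are summits and the dark bar is the gene span; Slc38a4 has 9 sites along its span, and the peak of 13270 bp at Slc6a13 crosses one end of the gene.

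Slc1a2 and Slc6a9 are known from both liver and brain. Slc1a2 encodes GLT-1, the main glutamate transporter of astrocytes, which hepatocytes around the central vein also use. Its 4 sites all lay inside its span of 132.5 kb, and 1 stood apart with a fold of 16.8 (15.2 to 18.6), 39110 bp past the annotated start (chromosome 2, 102744614 to 102746352), while the other 3 had folds of 4.42 to 4.79. Slc6a9 encodes the glycine transporter GlyT1. Its 5 sites had folds of 12.5, 6.91, 6.53, 4.97 and 4.93 and lay between 5149 bp before the gene and 4707 bp inside it, where the strongest was (chromosome 4, 117838578 to 117842035).

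The other members of the Slc1 family, which carry glutamate or small neutral amino acids, had few sites. Slc1a4, the alanine, serine and cysteine carrier ASCT1, had a site of fold 11.9 (10.5 to 13.4) centred 679 bp before its start under a peak of 3088 bp (chromosome 11, 20331073 to 20334160). The glutamate transporters Slc1a1, Slc1a3, Slc1a6 and Slc1a7 and the glutamine carrier Slc1a5 had none. The family thus stood at 2 of 7 (28.6%, against 54.5% of all genes). The Slc6 family, which holds most of the neurotransmitter transporters, stood at 6 of 19 (31.6%). Its members with a site were the 4 at Slc6a6, Slc6a9, Slc6a12 and Slc6a13, all with a strongest fold above 12, and 2 with weak single sites, the serotonin transporter gene Slc6a4 (5.84, 4.89 to 6.94) and Slc6a16 (4.42). No site lay within reach of Slc6a11, a GABA transporter gene of astrocytes, of Slc6a2 and Slc6a3, the noradrenaline and dopamine transporters, or of the glycine transporter gene Slc6a5. The same held for the proline transporter gene Slc6a7, for Slc6a15 and Slc6a17, which carry neutral amino acids in neurons, and for the creatine transporter gene Slc6a8.

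Slc6a6, the taurine transporter gene, had 6 sites and was the most occupied of the broadly expressed group. Folds were 12.6 at 2 of them, 11.2, 9.70, 7.08 and 4.70. The higher of the sites of fold 12.6 by rank lay 4034 bp outside the gene under a peak of 2799 bp (chromosome 6, 91678457 to 91681255), and that of fold 7.08 lay 120 bp from a gene end.

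Carriers at the lysosome differed among themselves. Slc38a7 encodes SNAT7, which exports glutamine and asparagine from lysosomes, and it had the highest fold of the 61 genes. Its sites had folds of 18.9 (17.2 to 20.8) and 17.1 (15.5 to 19.0) and flanked the gene on chromosome 8, the first 2136 bp outside one end (95832792 to 95834853) and the second at −304 bp from the annotated start. Their intervals overlap. Slc36a1, the lysosomal proton-coupled carrier PAT1, had sites of fold 16.1 (14.5 to 17.9) and 10.9 inside the gene, the stronger 13562 bp past the start under a peak of 3822 bp (chromosome 11, 55214907 to 55218728). Slc38a9, whose product reports lysosomal arginine to mTORC1, had no site in reach, the closest lying 13507 bp away with a fold of 5.57. Of the other proton-coupled carriers, Slc36a2 had a site of 6.26 and Slc36a4 one of 4.33, and Slc36a3 had none.

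Heavy and light subunits of the heterodimeric carriers did not share one pattern. Slc3a1 encodes rBAT, the heavy subunit that takes the light subunit encoded by Slc7a9 to the membrane of kidney and gut cells for cystine uptake. Slc3a1 had 6 sites inside the gene with a strongest fold of 17.9 (16.2 to 19.7), 24453 bp past its start (chromosome 17, 85051045 to 85053343), then 12.0, 9.06, 6.12, 5.02 and 4.19, while Slc7a9 and the other light subunit gene Slc7a13 had none. Slc3a2 encodes the heavy subunit 4F2hc and had 2 weak sites, of folds 4.24 (3.44 to 5.17) and 4.02. Of its 6 light subunit genes, 3 had a site: Slc7a5, which encodes the large neutral amino acid carrier LAT1, at 9.66 (8.41 to 11.0), and Slc7a7 and Slc7a8 at 9.43 (8.20 to 10.8) each. The equal values of Slc7a7 and Slc7a8 come from separate summits with 201 fragments each. Both sites counted for Slc7a7 lie nearer to another gene, that of 9.43 inside Oxa1l and that of 5.16 beside Mrpl52. The light subunit genes Slc7a6, Slc7a10 and Slc7a11, the last of which encodes the cystine and glutamate exchanger xCT, had no site.

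Among the remaining Slc7 genes, Slc7a15 had 5 sites, all inside the gene. The strongest had a fold of 15.7 (14.1 to 17.5) under a peak of 2343 bp (chromosome 12, 8571722 to 8574064), and the others lay between 5.95 and 8.63. The cationic carrier genes Slc7a1 and Slc7a3 had none, nor had Slc7a4, Slc7a12 and Slc7a14. The Slc7 family stood at 5 of 15 (33.3%, against 54.5% of all genes). The Slc38 family stood at 8 of 11 (72.7%), the highest share of the families with more than 4 members. The smaller Slc3, Slc36 and Slc43 families stood higher, at 2 of 2, 3 of 4 and 3 of 3. Slc38a6 had sites of 10.0 and 7.59, the latter also inside Trmt5. Slc38a11 had 3 of 4.70 to 6.53. Slc38a10 had 2 of 4.97 and 4.06, the latter 4755 bp outside it and inside Ndufaf8, and Slc38a1, the neuronal system A carrier, had 1 of 4.47. Slc38a5 and Slc38a8 had none. Slc43a2, which encodes LAT4, had 3 sites of 4.05 to 5.25, so the Slc43 family stood at 3 of 3. The others with no site in reach were Slc6a14, Slc6a18, Slc6a19 and Slc6a21.

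**Figure D3:**
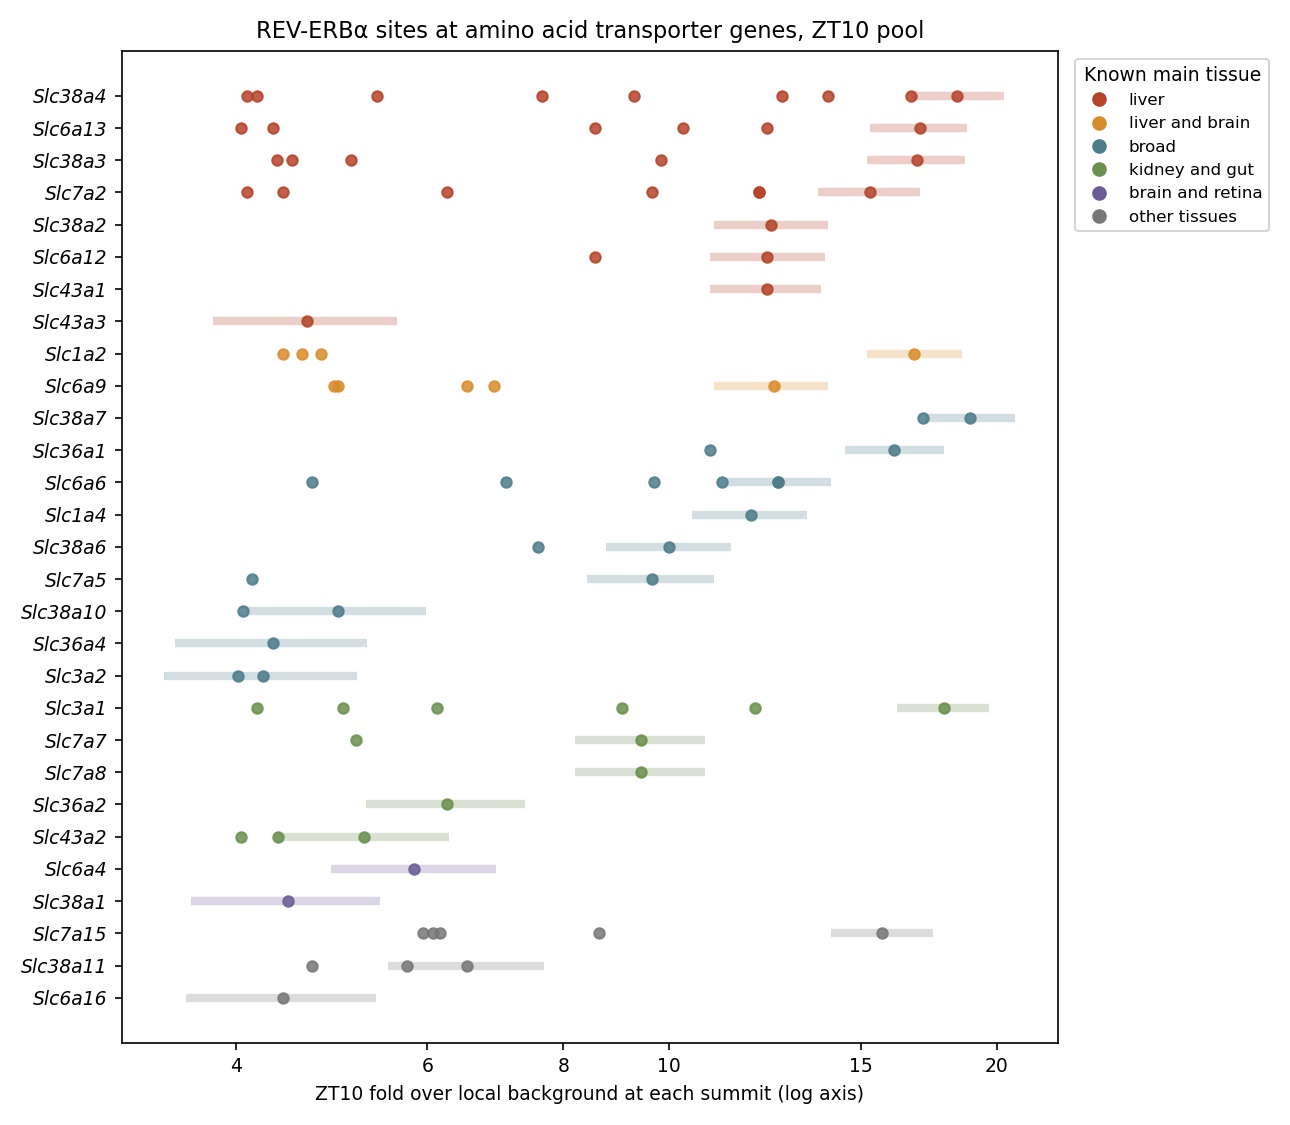
ZT10 fold at every REV-ERBα summit (points, log axis) of the 29 transporters with a site, coloured by the tissue each is best known from. Bars are exact 95% Poisson intervals of the strongest summit; Slc38a7 (18.9), Slc38a4 (18.4) and Slc3a1 (17.9) have the highest values and overlapping intervals.

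The strongest folds fell off gradually. From Slc38a7 at 18.9 through Slc38a4, Slc3a1, Slc6a13, Slc38a3, Slc1a2, Slc36a1 and Slc7a15 to Slc7a2 at 15.3, each interval overlaps that of its neighbours, and only the ends are apart (17.2 as the lower bound of Slc38a7, 17.0 as the upper bound of Slc7a2). Slc6a6 follows at 12.6 (11.3 to 14.1), which overlaps the interval of Slc7a2 (13.7 to 17.0), then Slc6a9, Slc38a2, Slc43a1, Slc6a12 and Slc1a4 at 11.9. None reached the strongest sites of the list, since the site at Slc38a7 ranked 1562 of 27929. Over the 29 genes with a site, the median strongest fold was 11.9, against 7.82 over the 11787 protein-coding genes with a site and 10.1 over the 186 other solute carriers with one. Of the 29, 19 (65.5%) lay above 7.82. A strongest fold of 10 or more was found at 16 of the 61 (26.2%), against 19.1% of all genes and 34.8% of the other solute carriers. There were 5 or more sites at 8 of the 61 (13.1%), against 5.56% of all genes and 9.06% of the other solute carriers. Those 8 were Slc38a4, Slc7a2, Slc3a1, Slc6a6, Slc6a13, Slc6a9, Slc38a3 and Slc7a15, and they held 49 of the 83 sites. The median span was 33.7 kb for the 61 genes, 17.3 kb for all genes and 28 kb for the other solute carriers. The part of gene length in these shares and folds was not tested.

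**Figure D4:**
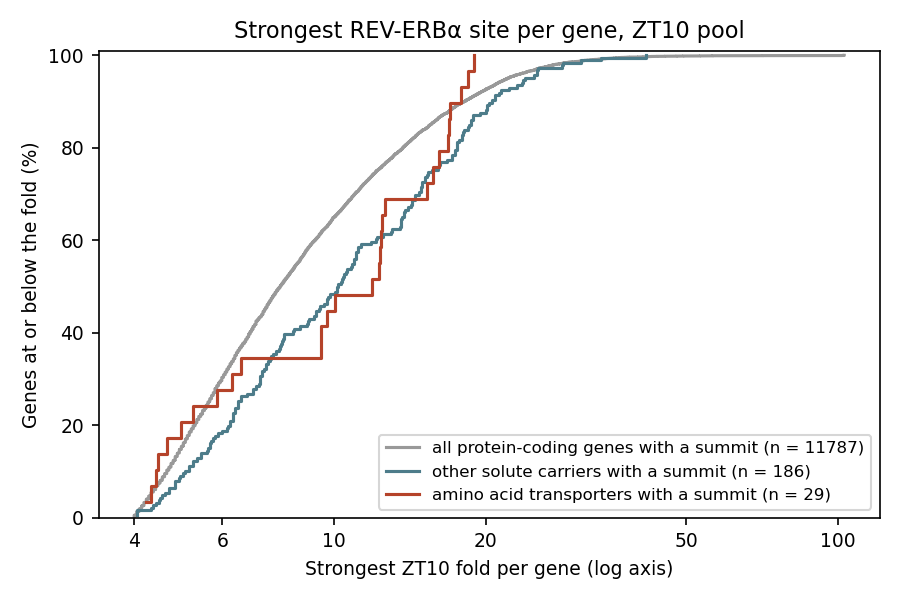
Cumulative share of genes (vertical axis, percent) by the strongest ZT10 fold in reach (log axis), for the 29 transporters with a site, the 186 other solute carriers with a site and the 11787 protein-coding genes with a site. The transporters lie to the right of all genes between folds of 6.53 and 16.8 and end at 18.9, while the list of all genes runs on to 103.

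Of the 83 sites, 66 had a summit inside a transporter's span and 17 outside, and of the 29 strongest sites 20 lay inside. The matching share over all genes is not given here. The median span of the 61 genes was 33.7 kb, and each window adds 10 kb on either side. Inside does not mean far from an end, since a summit of Slc38a10 lay 59 bp and that of Slc38a2 138 bp from one. RefSeq starts were not at hand for 18 of the 61 genes. Among the 18 were Slc7a2, Slc6a6, Slc38a3 and Slc7a5, where a ZT10 peak crosses a gene end. Starts were at hand for the other 43. A ZT10 peak lay over an annotated start at 12 of these (27.9%), against 38% of the 17274 protein-coding genes with a start, and a summit lay within 1 kb of a start at 11 (25.6%, against 34.5%). The 12 were Slc1a4, Slc3a2, Slc6a9, Slc6a13, Slc36a1, Slc36a4, Slc38a2, Slc38a4, Slc38a6, Slc38a7, Slc38a10 and Slc43a2.

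The 250 bases before the start are shown for 5 of these, the 4 with the strongest peaks among the liver and Slc38 genes and, at Slc38a6, one whose summit falls within the bases shown. They come from RefSeq for GRCm38.p6 (the assembly called mm10 in the files) and read 5′ to 3′ on the strand of the gene, and capitals mark the hexamer AGGTCA or its reverse complement TGACCT.
Slc38a2, chr15:96699729-96699978, minus strand, peak fold 12.4: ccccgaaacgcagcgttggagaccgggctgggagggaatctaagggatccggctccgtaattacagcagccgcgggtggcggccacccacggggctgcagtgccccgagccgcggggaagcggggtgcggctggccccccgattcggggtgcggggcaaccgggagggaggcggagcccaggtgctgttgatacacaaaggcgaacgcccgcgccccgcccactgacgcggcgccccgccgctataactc
Slc38a7, chr8:95853492-95853741, minus strand, peak fold 17.1: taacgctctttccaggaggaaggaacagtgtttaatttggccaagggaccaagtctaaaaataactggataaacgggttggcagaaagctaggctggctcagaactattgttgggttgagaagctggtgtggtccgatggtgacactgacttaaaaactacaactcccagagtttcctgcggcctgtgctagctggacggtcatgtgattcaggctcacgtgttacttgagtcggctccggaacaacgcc
Slc38a4 at an inner start, chr15:97031214-97031463, minus strand, peak fold 18.4: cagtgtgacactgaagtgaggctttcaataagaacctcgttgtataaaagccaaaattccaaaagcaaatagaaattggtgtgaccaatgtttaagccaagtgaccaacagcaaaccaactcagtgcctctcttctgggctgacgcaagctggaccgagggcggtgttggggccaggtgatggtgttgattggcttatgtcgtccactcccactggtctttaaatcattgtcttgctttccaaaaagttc
Slc6a13 at its innermost start, chr6:121303389-121303638, plus strand, peak fold 17.0: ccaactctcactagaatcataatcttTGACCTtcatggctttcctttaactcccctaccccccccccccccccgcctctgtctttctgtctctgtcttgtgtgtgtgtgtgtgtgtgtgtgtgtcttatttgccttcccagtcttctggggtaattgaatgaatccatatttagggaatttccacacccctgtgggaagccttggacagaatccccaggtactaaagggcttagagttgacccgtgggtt
Slc38a6, chr12:73286598-73286847, plus strand, under a summit also inside Trmt5, peak fold 7.59: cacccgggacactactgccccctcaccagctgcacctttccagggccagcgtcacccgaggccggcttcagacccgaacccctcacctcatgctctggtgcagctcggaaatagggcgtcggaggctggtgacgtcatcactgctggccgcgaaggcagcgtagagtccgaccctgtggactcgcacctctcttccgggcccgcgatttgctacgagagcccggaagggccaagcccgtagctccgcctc

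Among these 5, the sequence of Slc6a13 held the hexamer, once, beginning at −224 bases from that start. Of the 14 transporter windows wholly under a ZT10 peak, 1 held it, and 814 of 7183 such windows (11.3%) over all protein-coding genes did. The window of Slc36a1 is only partly covered and so not among the 14, but it holds the hexamer at −27, in the covered stretch. Over all windows, peak or not, 9 of 64 windows of the transporters and 2700 of 21045 windows (12.8%) of all genes held it. A gene with several starts has several windows, which may overlap, and the 2 windows of Slc7a9 hold the same hexamer. With a T before it, as TAGGTCA, it was in 0 of the 64 and in 2.04% of all, and the paired form AGGTCANNAGGTCA was in 0 of the 21045. The search took both strands and exact letters, and a summit may lie outside the window, as at Slc38a4, where it was 1950 bp past the start.

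The limit of 10 kb decided some sites. Just inside it were a summit of Slc7a7 8452 bp outside its span and the summit in Slc6a12, 9128 bp from Slc6a13, but both genes also had closer summits. The gene with a site whose closest summit was farthest was Slc7a7, at 6760 bp, followed by Slc43a3 at 3144 bp. Just outside the limit, Slc1a7 had a summit of fold 5.34 at 11639 bp, Slc7a6 one of 7.82 at 12311 bp and Slc6a21 one of 4.42 at 12457 bp, the last being the site of Slc6a16. Of the 32 genes with no site in reach, 16 had a summit within 50 kb. The farthest was Slc6a15, 1004087 bp from the closest ZT10 summit, followed by Slc6a14 at 752916 bp and Slc7a11 at 389565 bp.

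The comparison of ZT10 with ZT22 asked which sites were also listed when REV-ERBα is scarce. No ZT22 peak lay over any of the 83 sites, and the closest ZT22 summit to a transporter was 2238427 bp away. The matching share of all 27929 ZT10 peaks is not given here. Over all protein-coding genes 0.0693% had a ZT22 site, so a lack of overlap is not particular to these transporters. The ZT22 list holds 36 peaks in all with a lowest fold of 4.08, so a weaker signal at ZT22 is not recorded there and no fold between the times can be given. The summits of the ZT22 list hold at least 82 fragments, close to the 83 of the ZT10 list.

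Other genes of amino acid handling were read the same way at ZT10, where 54.5% of all genes had a site and the median strongest fold was 7.82. Enzymes of amino acid breakdown and glutamine handling had a site at 31 of 31, with a median strongest fold of 13.2, led by Cbs (36.5), which makes cystathionine from homocysteine, Hal (26.0), which breaks down histidine, and Gldc (24.6), which cleaves glycine. Genes of amino acid sensing by mTORC1 and GCN2 had one at 18 of 20 with a lower median of 5.91, led by Sesn2 (23.4), a leucine sensor, Lamtor1 (11.6) and Sesn1 (8.33). Genes of the ATF4 stress response had one at 12 of 16 with a median of 8.92, led by Atf5 (29.2), Fgf21 (17.8) and Ddit3 (14.3), and Asns, Phgdh, Aldh18a1 and Nupr1 had none. Amino acid transporters outside the 7 families had one at 12 of 20 (60%) with a median of 12.7, led by Slc15a4 (25.3), Slc17a8 (17.4) and the aromatic amino acid carrier gene Slc16a10 (14.8), which had 13 sites. Of 6 genes for proteins that regulate or escort transporters, 3 (50%) had one, namely Nedd4l (32.6), a ubiquitin ligase, Sgk1 (16.5), a kinase, and Ajuba (7.59).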

How the data were processed

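Livers were assayed by ChIP-seq, and of 45 samples in 18 groups the deposited lists come from 8, all from anti-HA immunoprecipitation of tagged liver. Per the labels' protocols, fixation was with formaldehyde and EGS and Tn5 tagmentation gave the libraries. MACS2 2.1.2, BWA 0.7.17, deepTools 3.3.0, SAMtools 1.9, Picard 2.18.12, cutadapt 2.3, bcl2fastq 2.17 and mm10 are named, without role or order, per the submitters' processing notes. Which control library was used is not stated. Per the labels, each deposited list comes from 4 pooled samples, and each peak has 1 summit. The fold is the authors' ratio of summit to local background in the deposited lists, used here only within a list. The deposited −log10 p and −log10 q are the peak caller's.

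Genes came from RefSeq GRCm38.p6, with spans but no exons, so peaks are not placed in exons, introns or UTRs. Pileup and background were solved from fold and −log10 p (pseudocount 1, lowest background 4.14), and 99.2% of ZT10 summits gave a whole fragment number (tolerance 0.1), where 20% would by chance. The solution was tested on simulated data. Calculations used Python 3.11.15, pandas 2.3.3, numpy 2.4.6 and scipy 1.17.1. Fragments read by PCR are not independent molecules.

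The genes, the tissue groups and the gene lists were chosen with earlier results of these data known, and subunit groups after the values were seen. Every gene is counted, but not every one is reported here by name, and the 3 strongest of each other list are named. Shares carry no test and are read beside that of all protein-coding genes. Alternatives were reaches of 2 and 50 kb, the span alone, a −log10 q of at least 10, the nearest gene only, any base of the peak, no X chromosome and other overlaps between the lists.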

Additional observations from a re-analysis of the deposited data

How the results depend on the processing

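No paired analysis was possible because each list was made from pooled samples, which also kept any single replicate from being left out. The count of 29 transporters with a ZT10 site was 23 to 29 under every alternative except a reach of 50 kb, where it was 45 (73.8%, against 70.5% of all genes). The number of sites was 173 at 50 kb and 55 under a −log10 q limit of 10. Brain and retina transporters with a site numbered 9 of 18 at 50 kb and 1 under that limit. Liver transporters stayed at 8 of 8 or, without Slc43a3, at 7 of 8 (2 kb, span only and the −log10 q limit). With the nearest gene only, Slc7a7 had no site. The median strongest fold ran from 11.0 to 12.4, and all counts at ZT22 were 0. The share of transporters against that of all genes changed order, being higher with the span alone (37.7% against 36.2%), at 50 kb and with the nearest gene only (45.9% against 45.2%), and lower otherwise. Depth limits the weak sites, since a summit of 84 fragments at fold 4.05 has an interval of 3.27 to 4.97.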
